A study of Mus musculus with 15 samples.

Results

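Cultured mouse podocytes lacking Col4a3 (Col4a3-/-, 3 RNA libraries) were compared with wild-type podocytes (Col4a3+/+, 3 libraries), 6 of the 15 libraries of the series. The members were chosen by column: the table holding the wild-type libraries also holds 1 set of knockout libraries, and the comparison used those 6 columns and all 57132 gene rows. Both groups received vehicle, and the labels give each group as 1 cell line without saying how the lines were derived, how many clones they represent, or whether the 3 libraries of a line came from separate cultures. The p-values therefore measure only the spread between these libraries, and anything that differs between the 2 lines besides the Col4a3 genotype cannot be told apart from it. The other 9 libraries are Col4a3-/- podocytes of a separately normalized table, of which 3 received vehicle, 3 apolipoprotein M and 3 the S1PR4 antagonist CYM50358. Levels in that second vehicle set are given below as a description without a test.

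Podocytes are the epithelial cells that wrap the glomerular capillaries with interlocking foot processes and close the kidney filter together with the basement membrane. Col4a3 encodes the alpha 3 chain of type IV collagen, which podocytes make with the alpha 4 and alpha 5 chains for that membrane, and whose loss causes Alport syndrome. The report describes gene families other than collagens, cell division and cholesterol synthesis: patterning and guidance genes, signalling ligands and receptors, channels and transporters, detoxifying enzymes, and housekeeping complexes.

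Each library held between 45417221 and 54290968 reads assigned to genes. Values are given as scaled signal, the normalized read value in the deposited table, in which 1 read was worth 0.0179 to 0.0221. Wild-type replicate 1 stood apart from the other wild-type libraries: its chi-square per degree of freedom over genes was 53.5 and 56.1 against them, where those 2 libraries differed by 10.8 and the knockout pairs by 20.8 to 24.9. Col4a3 itself was 938, 1049 and 1268 in the wild-type and 62.2, 60.9 and 81.8 in the knockout libraries, so the knockout libraries were low but not at 0. The cells carried part of the podocyte programme: Synpo, the foot-process actin organizer, was 846, 756 and 802 against 557, 521 and 489.6, while the slit-diaphragm gene Nphs1 was nearly unread, with 24, 22 and 21 reads against 2, 4 and 0. Of 29 tested podocyte markers 7 rose and 11 fell (62.1% called), and the sums over all 34 listed overlapped, at 8398 to 9720 in wild-type and 8341 to 9024 in knockout libraries. Lmx1b, a podocyte transcription factor, rose, at 0.986, 0.533 and 0.648 against 8.3, 7.35 and 7.25. Thsd7a, a foot-process membrane protein, also rose, at 69.2, 67.6 and 56.8 against 183, 151 and 152. The 3 falls of at least 2-fold were those of Wt1, Pla2r1 and Plce1. Wt1 was 25.8, 15.2 and 20.7 against 2.92, 1.43 and 3.1. Pla2r1 fell from 4.72 ± 0.857 to 0.445 ± 0.12 and Plce1 from 8.13 ± 1.56 to 2.08 ± 0.406 (SD). Endothelial markers were low, with 11 markers summing to a signal of 57.9 to 69.9 in wild type and 43.6 to 49.4 in knockout libraries. The 10 leukocyte markers summed to 14.6 to 17.6 and 6.75 to 7.74, with Adgre1, Tyrobp and Cd3e at 0. The sums of 15 parietal and tubular markers were 1619 to 2647 in wild-type and 902 to 1127 in knockout libraries, with Umod at 0. Most of that gap was Spp1 (osteopontin), at 1693, 848 and 968 against 241, 182 and 221. Without it the sums were 758 to 954 and 720 to 885. Of 9 tested markers of this list 1 rose and 4 fell (55.6% called). Cdh16 (kidney cadherin) rose, at 75, 86.6 and 51.8 against 219, 179.9 and 196. Besides Spp1, Cldn2 fell from a mean of 61.65 to 6.81, Krt19 from 3.97 to 0.338 and Pax2 from 171 to 115. The 14 mesangial and fibroblast markers summed to 9884 to 12343 and 9340.2 to 10868, with Lum at 0. The part of these markers in the results below was not tested, and in bulk RNA fewer cells of a type and less RNA per cell cannot be told apart. The Y-linked genes Ddx3y and Kdm5d were read in all 6 libraries at 123 to 152 and 33.4 to 38.7.

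Of 14313 genes with enough signal to be tested, 44.7% were called at an adjusted p under 0.05 (limma on log2(signal + 1), Benjamini-Hochberg). The 3239 genes that rose made up 22.6% of those tested, and the 3156 that fell made up 22%. A change of at least 2-fold was called for 6.09%, with 345 genes (2.41%) higher and 526 (3.67%) lower. In 55.8% of tested genes the 3 knockout values did not overlap the 3 wild-type values. Each family below is read against these shares, and the median log2 fold change over all tested genes was 0.00289. Families differed widely in how many members were called and in which direction. In the netrin, Slit and Robo family and among neurotrophin and GDNF genes 77.8% were called, against 24.3% of proteasome subunits and 19.4% of immediate early genes.

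**Figure D1:**
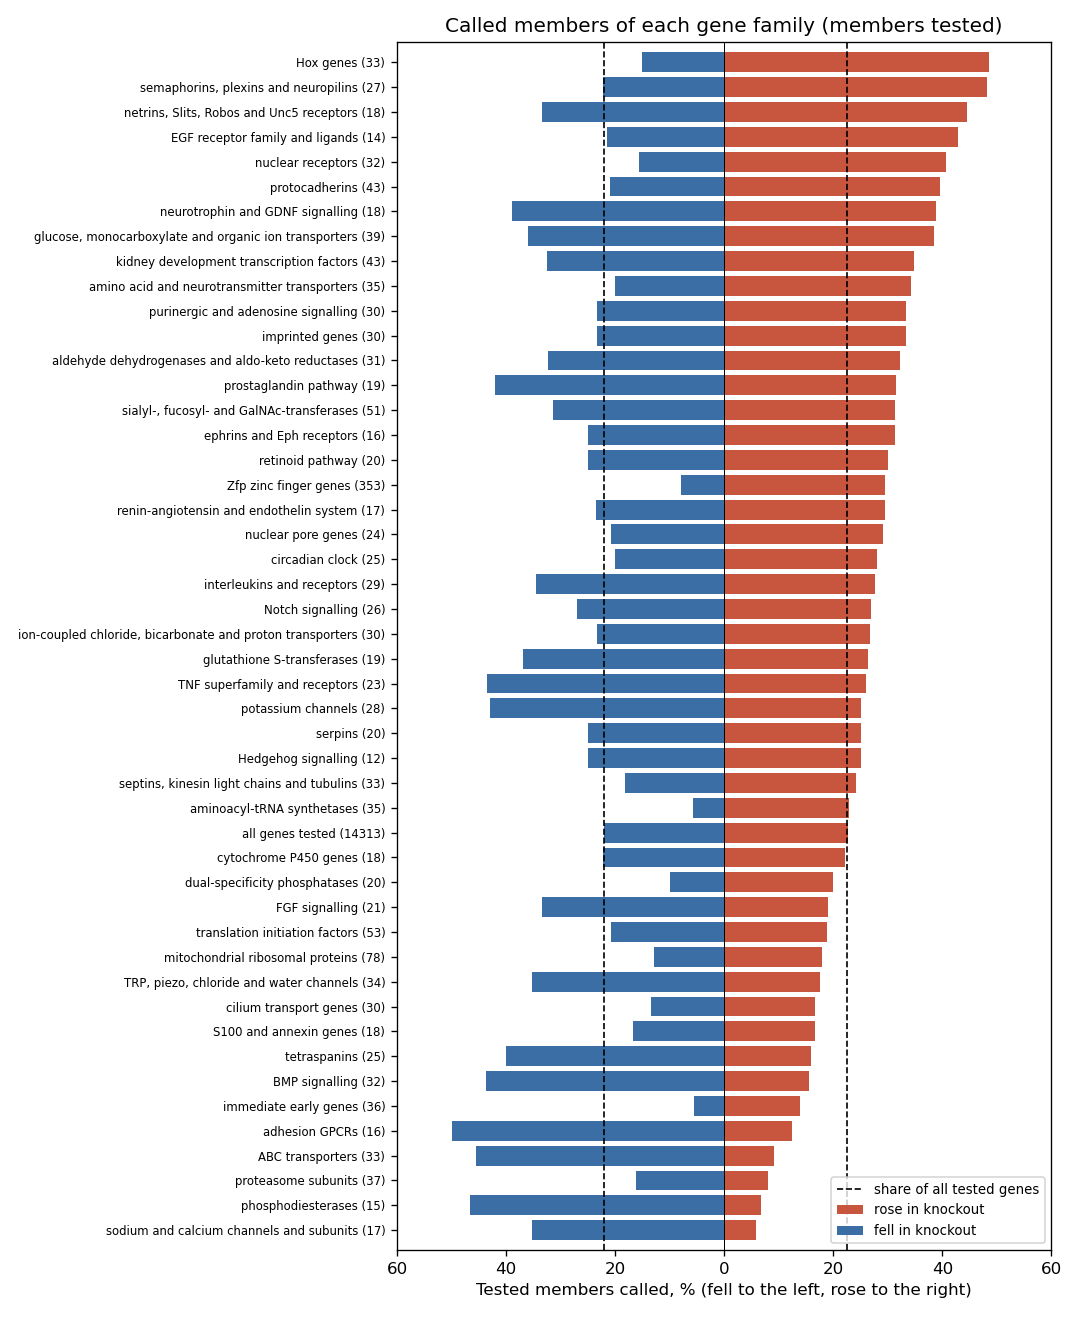
Share of tested members called in gene families of at least 12 tested members (number in parentheses), with rises in the knockout to the right and falls to the left in percent; dashed lines mark the shares over all tested genes. Hox, semaphorin and netrin families extend farthest to the right, and adhesion GPCRs, phosphodiesterases and ABC transporters farthest to the left.

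Among abundant genes annotated as protein-coding, the largest rises were those of Loxl2, which cross-links collagen and elastin, and Sfrp2, a secreted Wnt antagonist. Loxl2 was 15, 20.6 and 20.2 in wild-type libraries against 537, 525 and 519 in the knockout (log2 fold change 4.77 ± 0.10, SE) and Sfrp2 12.4, 5.99 and 3.26 against 215, 146 and 236 (4.73 ± 0.35). Anxa1, a phospholipid-binding protein that restrains inflammation, was 111, 150.4 and 125 in wild-type and 731, 833 and 689 in knockout libraries. Npy1r, a receptor for neuropeptide Y, was 18.5, 25.7 and 19.2 against 123, 144 and 119.7. For Anxa1 and Npy1r limma gave log2 fold changes of 2.54 ± 0.11 (SE, adjusted p = 3.5e-07) and 2.56 ± 0.12 (adjusted p = 5.3e-07). Postn, the matricellular protein periostin, was 13.8, 23.5 and 19.2 in wild-type and 90.2, 61.4 and 104 in knockout libraries, a log2 fold change of 2.12 ± 0.21 (adjusted p = 5.9e-05). Ntrk3, the receptor for neurotrophin-3, was 22.5, 11.8 and 10.2 and 64.2, 46.4 and 63.1 (1.96 ± 0.25, adjusted p = 0.00025). The highest wild-type value of Ntrk3 came from replicate 1.

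Lrrc32, which tethers latent TGF-beta at the cell surface, rose by 1.90 ± 0.10 on the log2 scale, from a mean of 43.9 ± 5.11 to 167 ± 17.8 (SD, n = 3 each). Mrc2, an endocytic receptor for collagen, rose by 1.71 ± 0.10, and Anxa8 by 1.85 ± 0.17. Inhbb, the beta B subunit of activins and inhibins, was 15.6, 24.5 and 24.9 against 57.3, 67.1 and 60.8 (1.50 ± 0.16, adjusted p = 7.9e-05). Emx2, a homeobox factor needed for the embryonic kidney, was 18.2, 23.3 and 21.6 against 56.8, 68.5 and 66.4 (1.56 ± 0.10, adjusted p = 4.2e-06). The largest rises and falls were taken only from genes whose groups did not overlap, so their separation is no separate finding. Fras1, a basement membrane protein of the developing kidney, spread more widely, at 92.3, 58 and 48.3 in wild-type and 254, 135 and 232 in knockout libraries (1.63 ± 0.26, adjusted p = 0.0011). Levels in the second vehicle knockout set, here and below, are of single genes chosen after their values were seen. There Anxa1 was 910.1 ± 87.8, Postn 97.4 ± 45.9, Bgn 4.1 ± 1 and Sulf1 10.1 ± 0.954. In that set Npy1r was 50.6 ± 6.76 and Fras1 71.2 ± 24.3, and Fbln7, an adhesive fibulin, was 10.9 ± 1.65 there against 48 ± 6.65 in the tested knockout and 16.2 ± 5.05 in the wild-type set.

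Some leading rises were genes with near-identical copies, whose reads the authors' counting could have split. Rpl29, a ribosomal protein gene, was 29.9, 32.7 and 32.3 in wild-type and 166, 167 and 160.2 in knockout libraries (2.34 ± 0.05, adjusted p = 8.2e-09). The pseudogene Rpsa-ps10 was 2.31, 3.15 and 2.98 against 145, 148 and 151. Replicates of each gene lay close together, but which copy the reads came from is uncertain.

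The largest falls among abundant genes were those of the matrix proteoglycan Bgn (biglycan), the proprotein convertase Pcsk5 and the heparan sulfate sulfatase Sulf1. Bgn was 1036, 920.1 and 1003 against 7.55, 5.05 and 7.02 (log2 fold change -7.05 ± 0.12), Pcsk5 177, 226 and 239.5 against 3.14, 3.02 and 3.3 (-5.68 ± 0.11) and Sulf1 360.2, 286 and 312 against 11.7, 10.9 and 13.9 (-4.60 ± 0.10). Il11, an interleukin-6 family cytokine, was 100.0, 67.8 and 79.3 in wild-type and 11.9, 13.5 and 8.92 in knockout libraries, a log2 fold change of -2.75 ± 0.16 (limma, adjusted p = 2.2e-06). Gnai1, an inhibitory G protein alpha subunit, was 63.7, 53.8 and 49.5 against 11, 9.6 and 7.95 (-2.43 ± 0.12, adjusted p = 8.4e-07). As for all the largest falls, the choice of Il11 and Gnai1 required that their groups not overlap. Ctnnd2, a catenin of the adherens junction, fell from 58 ± 10.7 to 10.4 ± 1.93 (-2.36 ± 0.15), and Atp9a, a P4-ATPase of endosomes, from 83.6 ± 3.55 to 19.7 ± 2.64 (-2.04 ± 0.09).

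Wnt16 was 969.7, 724 and 695 in wild-type and 224, 185 and 222 in knockout libraries, and Wnt7b was 40.8, 51.8 and 59.6 against 8.21, 10.3 and 10.6. Both Wnt ligands fell, by log2 fold changes of -1.91 ± 0.13 and -2.27 ± 0.14 (limma, adjusted p = 4.8e-06 and 2.9e-06). In the second vehicle knockout set Wnt7b stood at 38.1 ± 4.09, nearer to the wild-type mean of 50.7 ± 9.41 than to the tested knockout mean of 9.68 ± 1.28, while Wnt16 was 99.7 ± 21.8. Ccn5, a matricellular protein of the CCN family, was 299, 299 and 348 against 84.5, 79.7 and 78.6 (-1.95 ± 0.07, adjusted p = 8.8e-08). Cdo1, the enzyme that starts cysteine breakdown, was 144, 133 and 123 against 40.9, 33.4 and 32.8 (-1.88 ± 0.09, adjusted p = 6.6e-07). Eps8l2, an actin regulator, fell by a similar log2 amount (-1.91 ± 0.09).

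**Figure D2:**
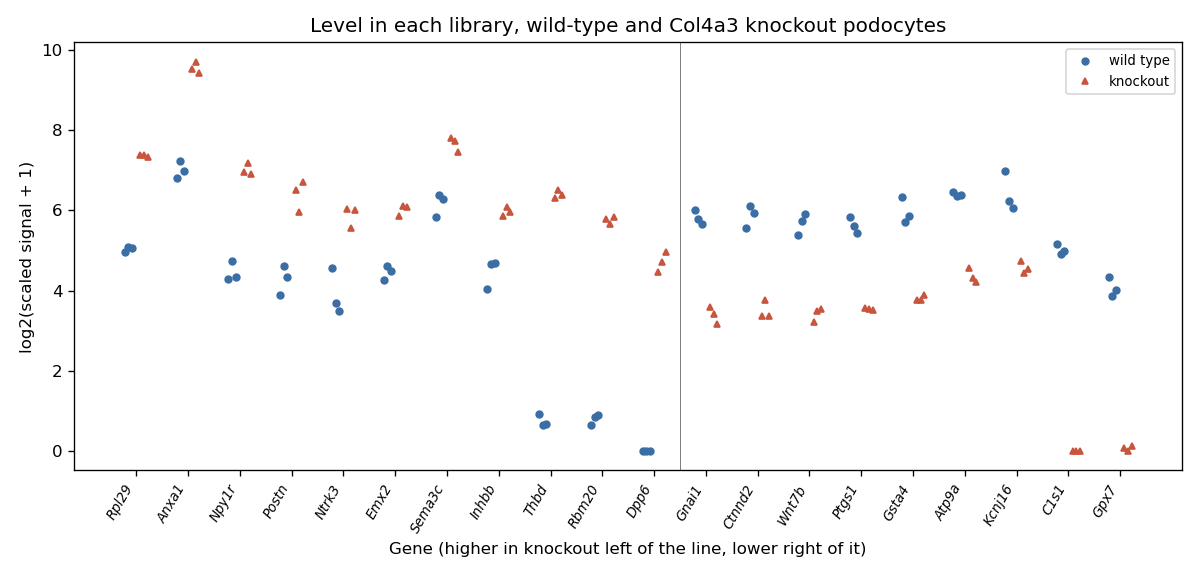
Level of selected genes in each library, as log2(scaled signal + 1), for the 3 wild-type (circles) and 3 knockout libraries (triangles). Thbd, Rbm20 and Dpp6 were at or near 0 in every wild-type library, and C1s1 and Gpx7 in every knockout library.

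Some genes were near 0 in one line and well read in the other. With a group mean under 1 in one line and at least 10 in the other, limits set after the values were seen, 19 genes were read mainly in the knockout and 27 mainly in the wild type. Thbd (thrombomodulin) was 0.887, 0.575 and 0.583 in wild-type and 78.3, 90.1 and 82.4 in knockout libraries. Tfpi, the tissue factor pathway inhibitor, lay outside these limits at 1.74, 1.36 and 2.14 against 53.3, 50.9 and 57.1. Both are anticoagulant proteins of the vessel wall, and both were high in every knockout library. Rbm20, a splicing factor best known in heart muscle, was 0.572, 0.788 and 0.864 against 53.8, 49.3 and 55.6. Ptx3, a soluble pattern-recognition pentraxin, was 0.138, 0.0852 and 0.108 against 19.2, 16.3 and 16.1. Dpp6, an accessory subunit of potassium channels, had 0 reads in the 3 wild-type libraries. Its signal was 21.1, 25.2 and 30.4 in the knockout libraries, at least 408-fold higher when wild type is set at 3 reads per library. Trim12a had 0 wild-type reads and a signal of 9.92, 10.1 and 10.7 in the knockout.

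In the other direction, C1s1, a serine protease that starts the classical complement pathway, was 34.7, 29.2 and 30.5 in wild-type libraries and had 0 reads in all 3 knockout libraries, at least 530-fold lower. Its neighbour C1ra on chromosome 6 was 30.6, 25.7 and 27.9 against 1.28, 1.51 and 1.18. Gpx7, an oxidative folding peroxidase of the endoplasmic reticulum, was 19.1, 13.5 and 15.1 in wild type, and the knockout libraries together held 7 of its reads. Irx2, an Iroquois homeobox factor of the nephron, was 17, 18.5 and 16.6 against 0.266, 0.0968 and 0.107. Ano2, a calcium-activated chloride channel, was 16.4, 19 and 19.4 against 0.199, 0.0387 and 0.125, and Galnt14, which starts mucin-type O-glycans, 32.2, 30 and 23.9 against 1.02, 0.561 and 0.394. Of the 46 genes, 38 were protein-coding, 7 were pseudogenes and 1 was a long noncoding RNA. In the second vehicle knockout set, 26 of the 27 genes were under 1, and 15 of the 19 were at 10 or more. The genes were chosen by their levels in the first set, and the shares over all tested genes were not counted in the second. Trim12a (0 and 10.2) and Cspg4 (10.2 and 0.442) lay just inside the limits, and Tnfrsf1b (0.616 and 9.85) and Oxtr (9.89 and 0.778) just outside.

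Of the 45 other tested genes within 5 Mb of Col4a3 on chromosome 1, 11 rose and 5 fell (35.6% called, against 37.8% over chromosome 1), with a median log2 fold change of 0.07. Sp140l2, a nuclear-body gene 2271 kb from Col4a3 (82564642 to 82699780, mm39), rose from 0.986, 0.66 and 0.562 to 15.2, 11.6 and 14.7 (3.10 ± 0.14, limma, adjusted p = 4.6e-07). Its relative Sp140 rose from 11.6 ± 0.235 to 18 ± 2.03 (0.59 ± 0.10). The Sp100 and Sp140 genes of this region have near-identical copies, so these assignments are uncertain. Irs1, the insulin receptor substrate, was 153, 156 and 152 against 220.5, 226 and 231 (0.56 ± 0.05, adjusted p = 2.3e-05). Mff, a mitochondrial fission factor next in the region, showed 81.7, 82.2 and 84.4 against 78.4, 81.5 and 80.4, a difference not called (adjusted p = 0.46).

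Hox genes, the homeobox factors whose order along each cluster follows the body axis, separated by cluster. Of 33 tested, 16 rose and 5 fell (63.6% called, median log2 fold change 0.22). All 5 falls were in the Hoxa cluster, where Hoxa11 was the 1 rise among 10 tested, whereas 4 of 8 Hoxb, 6 of 9 Hoxc and 5 of 6 Hoxd genes rose and none fell. Hoxd10 was 0.71, 1.19 and 0.518 in wild-type and 8.46, 8.61 and 10.6 in knockout libraries (2.51 ± 0.16, limma, adjusted p = 3.3e-06). Hoxd11 was 0, 0.0639 and 0 against 3.1, 4.22 and 4.28 (2.24 ± 0.13, adjusted p = 2.1e-06). Both were close to unread in every wild-type library. Hoxa11, the paralogue of Hoxd11 with which it patterns the mouse kidney, was 0.256, 0.0852 and 0.0432 against 2.63, 4.9 and 4.26 (2.10 ± 0.18, adjusted p = 2.5e-05).

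Within the Hoxc cluster, Hoxc8 was 3.04, 3.22 and 4.88 in wild-type and 14.4, 14.7 and 15.7 in knockout libraries, and Hoxc6 was 14, 13.1 and 13.4 against 30.2, 34.1 and 36.8, with log2 fold changes of 1.78 ± 0.15 and 1.25 ± 0.09 (limma, adjusted p = 1.8e-05 and 5.7e-06). Hoxc10, in the same cluster, was 54.3, 54.3 and 52.5 against 55.6, 52.4 and 56 and was not called (adjusted p = 0.73). Neighbouring genes of 1 cluster thus differed in whether they were called. Hoxa7 was 30.2, 31.1 and 32.8 against 14.2, 15.4 and 16.9, and Hoxa10 80.4, 91 and 89.4 against 64.3, 61.6 and 64.8 (-0.97 ± 0.08 and -0.44 ± 0.06). Every 10-Mb window with at least 20 tested genes on chromosome 6, which carries Hoxa, had a median below 0. With each chromosome's median subtracted, 3 Hoxa genes fell and 1 rose, and the counts in the other clusters were as before. Hox genes overlap antisense transcripts, and the strand setting of the counting is not given in the sources used here. In the second knockout set Hoxc8 was 22.2 ± 2.05 and Hoxd10 5.23 ± 1.07, and Hoxd11 was 0.566 ± 0.194 against 3.87 ± 0.665 in the tested knockout set.

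**Figure D3:**
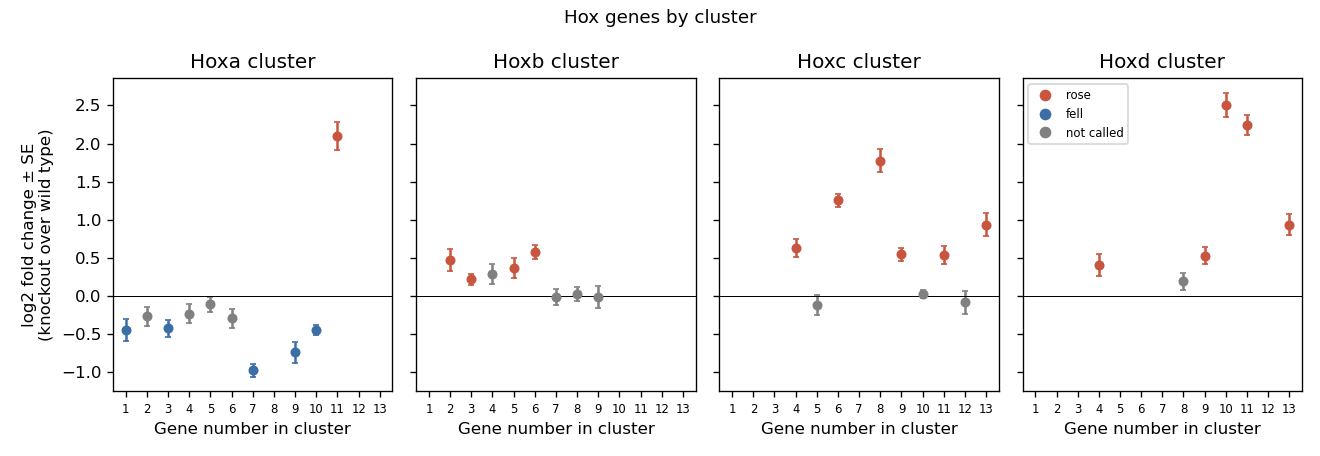
Log2 fold change (knockout over wild type, ± SE from limma, 3 libraries a side) of each tested Hox gene against its number in the cluster. Called falls are found among Hoxa genes at the left, and Hoxa11, Hoxd10 and Hoxd11 lie above 2.

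Transcription factors of kidney development moved in both directions: 15 of 43 tested rose and 14 fell (67.4% called). Gata2, a zinc finger factor, was 1.04, 1.13 and 2.14 in wild-type and 13, 15.9 and 13.4 in knockout libraries (2.66 ± 0.17, limma, adjusted p = 3.9e-06). Twist1 and Twist2, mesenchymal helix-loop-helix factors, rose from 7.83 ± 0.417 to 23.4 ± 0.75 and from 1.89 ± 0.629 to 13.3 ± 1.99 (1.47 ± 0.08 and 2.33 ± 0.18), and Snai2, a repressor of epithelial genes, from 11.1 ± 2.35 to 22 ± 1.24. These rising factors did not overlap between groups. Irx1, next to Irx2 on chromosome 13, was 6.65, 7.29 and 6.48 against 0.399, 0.136 and 0.502 (-2.54 ± 0.13, adjusted p = 1e-06), and in the second knockout set it was 3.17 ± 1.07. Eya2 was 211, 152 and 159.5 against 78.4, 65.7 and 67.3 (-1.28 ± 0.12).

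Among imprinted genes, which are expressed from 1 parental allele, 10 of 30 rose and 7 fell (56.7% called). Grb10, an adaptor that damps insulin receptor signalling, was 80.2, 74.6 and 86.9 against 217, 206 and 219 (1.40 ± 0.06, limma, adjusted p = 4.6e-07). Igf2r, the receptor that clears IGF2, rose from 106 ± 14.2 to 214 ± 28.1 (1.0 ± 0.11). Among the 7 falls, Ppp1r9a went from 26.8 ± 4.2 to 9.045 ± 0.0286 (-1.46 ± 0.11). Peg13 fell from 36.7 ± 0.238 to 21.9 ± 1.16 (-0.72 ± 0.07).

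Protocadherins are cell-recognition cadherins, and the clustered ones are made from variable first exons of 3 neighbouring gene arrays, of which each cell uses a few. Of 43 tested, 17 rose and 9 fell (60.5% called). In the beta array 8 of 16 rose and none fell, while in the gamma array 7 of 21 rose and 7 fell. Pcdhga11 was 0.355, 0.128 and 0.151 in wild-type and 20.6, 19.3 and 20.1 in knockout libraries, and Pcdhga3 was 22.2, 14.9 and 16.1 against 0.753, 0.368 and 0.645, so that genes of 1 array were read in opposite lines (4.12 ± 0.11 and -3.55 ± 0.16, limma, adjusted p = 2.2e-08 and 4.8e-07). Pcdhgb5 was 18.7, 12.8 and 14.7 against 0.864, 0.271 and 0.519 (-3.40 ± 0.17), and Pcdhga2 rose from 0.435 ± 0.138 to 5.25 ± 0.465. In the beta array Pcdhb17 was 28.1, 23.1 and 25.2 against 58.6, 52.2 and 55.8 (1.10 ± 0.08). Gamma genes share constant last exons, so reads there could have been split among them. Outside the clusters Pcdh9 was 4.28, 5.39 and 5.05 against 37.4, 39.9 and 30.4 (2.64 ± 0.12, adjusted p = 4.6e-07) and Pcdh7 143, 129 and 126 against 63.1, 54.5 and 46.3 (-1.27 ± 0.10). The second knockout set showed 17.1 ± 2.59 for Pcdhga11, 0.564 ± 0.179 for Pcdhga3 and 0.318 ± 0.2 for Pcdhgb5.

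**Figure D4:**
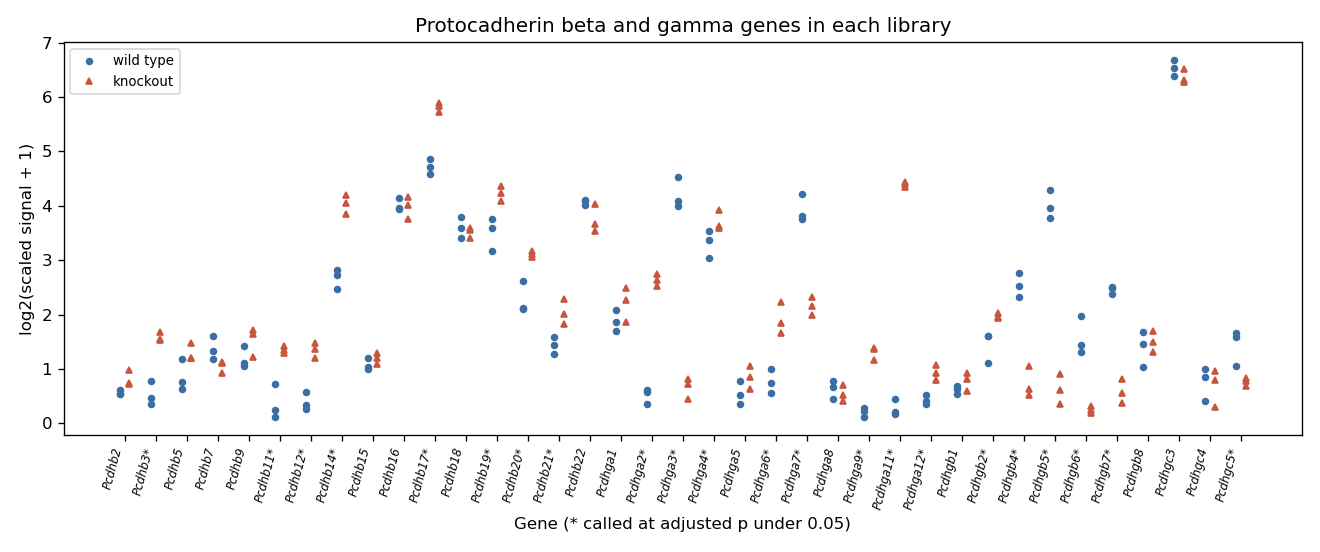
Level of each tested protocadherin beta and gamma gene in the 3 wild-type (circles) and 3 knockout (triangles) libraries, as log2(scaled signal + 1), with called genes starred. Pcdhga11 is near 0 in all wild-type libraries, and Pcdhga3 and Pcdhgb5 are near 0 in all knockout libraries.

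Guidance molecules, which steer axons and vessels and regulate podocyte shape, had many called members. Of 27 semaphorins and their plexin and neuropilin receptors, 13 rose and 6 fell (70.4% called, median 0.25). Among the ligands, Sema3a was 41.1, 62.7 and 53.4 in wild-type and 136, 153 and 128 in knockout libraries, and Sema3c 56, 82.1 and 76.6 against 224, 213 and 176 (1.41 ± 0.13 and 1.51 ± 0.14, limma, adjusted p = 4.5e-05 and 3.6e-05). Sema3e went the other way, from 264, 283 and 271 to 152, 144 and 111 (-1.01 ± 0.10, adjusted p = 7.2e-05). The receptors split as well. Nrp2, which binds class 3 semaphorins, rose from 84.3 ± 18.5 to 160.5 ± 7.14 and Nrp1 from 344 ± 47.8 to 469 ± 42.4, whereas Plxnd1, the receptor for Sema3e, fell from 38.8 ± 1.98 to 20.8 ± 1.36 (-0.87 ± 0.07). The rise of Nrp1, on chromosome 8, was no longer called with the chromosome's median subtracted (log2 fold change 0.17, adjusted p = 0.22). Plxnd1 was 32.65 ± 2.22 in the second knockout set, nearer to the wild-type than to the tested knockout mean.

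Of 18 netrin, Slit, Robo and Unc5 genes, 8 rose and 6 fell. Robo1, a Slit receptor, was 30.9, 35.4 and 34 in wild-type and 1.79, 1.7 and 1.59 in knockout libraries (-3.67 ± 0.10, limma, adjusted p = 1.7e-08). The netrin receptor Dcc was 0.927, 1.09 and 0.691 against 10.7, 10.3 and 10.1 (2.58 ± 0.12, adjusted p = 4.1e-07). The ligand Ntn4, a netrin of basement membranes, was 489, 445 and 436 against 242, 242 and 240.1 (-0.92 ± 0.06, adjusted p = 4e-06). The other netrin receptors split, with Unc5b rising from 98.1 ± 16.1 to 187 ± 14.2 (0.93 ± 0.11) and Unc5c falling from 2.07 ± 0.499 to 0.67 ± 0.121 (-0.87 ± 0.15). Among 16 ephrins and Eph receptors 5 rose and 4 fell (56.2% called), and 4 of the 5 rises were ligands (Efna1, Efna3, Efnb2 and Efnb3). Efnb2 rose from 182 ± 9.99 to 296 ± 7.31 (0.70 ± 0.06) and the receptor Epha7 from 24.2 ± 5.13 to 51.7 ± 1.58 (1.08 ± 0.13). Ephb6 fell from 48.9 ± 6.62 to 25.9 ± 2.23 (-0.88 ± 0.10). Efna3 was 14.6 ± 1.92 in wild-type, 22.4 ± 2.48 in tested knockout and 13.5 ± 2.8 in second-set knockout libraries. Efnb2 was 269 ± 17.7 in the second knockout set.

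Retinoic acid is made from retinol by retinol and retinal dehydrogenases, acts through the RAR receptors, and is broken down by CYP26 enzymes, and in mouse podocytes it favours a differentiated state. Of 20 tested retinoid genes 6 rose and 5 fell (55% called, median 0.05). The receptor gene Rarb is itself a known target of retinoic acid through a response element in its promoter, and its sequence is shown because it carries that element. The window of 250 bases before to 50 after the start (RefSeq, GRCm38.p6, minus strand, chr14:16575427-16575726) reads, with the match in capitals:
Rarb: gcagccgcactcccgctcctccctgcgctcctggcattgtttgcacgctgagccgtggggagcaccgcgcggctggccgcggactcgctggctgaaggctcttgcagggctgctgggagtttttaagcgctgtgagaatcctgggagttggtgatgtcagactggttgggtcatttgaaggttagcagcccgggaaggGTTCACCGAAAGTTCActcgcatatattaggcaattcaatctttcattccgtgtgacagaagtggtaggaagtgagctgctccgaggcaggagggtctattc
The motif searched was GTTCANNNNNNGTTCA, on both strands, which is the direct repeat as it is written in the Rarb element. Its fixed bases are those of Rarb, so the match there, with its first base at -52, is no separate finding. The motif was found in 0.0761% of 32851 promoter windows (25 windows), and not in those of Rarg, Cyp26b1, Dhrs3 or Aldh1a2. Repeats with other bases or spacings were not searched, so these values cannot tell whether those genes carry a retinoic acid response element. A match describes letters in the window and no binding.

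Rarb was 0.966, 2.32 and 2.59 in wild-type and 5.8, 6.19 and 6.81 in knockout libraries (1.34 ± 0.21, limma, adjusted p = 0.00086). Rarg, the gamma receptor, was 33.4, 37 and 37 against 58.5, 60.4 and 68 (0.78 ± 0.07, adjusted p = 4.2e-05). Cyp26b1, which degrades retinoic acid, was 367, 246 and 225 against 616, 549.7 and 504 (1.02 ± 0.16, adjusted p = 0.00092). These 3 genes were higher in all 3 tested knockout libraries than in any wild-type library. Cyp26b1 was 352.5 ± 19.8 in the second knockout set, below the highest wild-type value, and Rarg was 72.9 ± 4.76 there. Dehydrogenases of the list differed in direction. Aldh1a2, which makes retinoic acid, was 301, 258 and 279 against 187, 182 and 173 (-0.62 ± 0.07, adjusted p = 9e-05), and Dhrs3, which returns retinal to retinol, 143, 135 and 131 against 68, 64.1 and 59.4 (-1.08 ± 0.06, adjusted p = 2.1e-06). Aldh1a7, a close relative of Aldh1a1, rose, at 2.23, 2.9 and 2.96 against 7.15, 7.39 and 6.7 (1.13 ± 0.12, adjusted p = 7.6e-05).

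BMP signalling genes fell more often than they rose, 14 of 32 tested against 5 (59.4% called, median -0.23). The ligand Bmp4 was 239.5, 215 and 255 in wild-type and 76.8, 68.4 and 69.9 in knockout libraries (-1.71 ± 0.07, limma, adjusted p = 3.2e-07), and Gdf15, a stress-induced hormone of the superfamily, 888, 773 and 789 against 268, 236 and 208 (-1.78 ± 0.10, adjusted p = 1.2e-06). The Id genes are direct transcriptional targets of BMP receptors. Id3 was 133, 125 and 136 against 81.7, 70.7 and 77.3 and Id1 95.7, 85.1 and 82.1 against 73.7, 45.7 and 49.2 (-0.77 ± 0.06 and -0.66 ± 0.15, adjusted p = 2.1e-05 and 0.0071), and the inhibitory Smad6 fell from 67.3 ± 7.92 to 44.4 ± 3.01. Among extracellular antagonists, Fst fell from 1680.0 ± 84.2 to 931 ± 42.2 (-0.85 ± 0.08), and Fstl3 from 169.5 ± 18.6 to 80 ± 2.94 (-1.07 ± 0.08). The antagonist Chrdl1 rose, at 3.9, 1.53 and 1.38 against 17.1, 12.6 and 14.4 (2.33 ± 0.25). In the second knockout set Chrdl1 was 4.76 ± 0.912, and Bmp4 was 45.4 ± 1.69.

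In FGF signalling 4 of 21 genes rose and 7 fell (52.4% called). The ligand Fgf1 was 22, 19.4 and 18.4 in wild-type and 3.37, 3.31 and 2.76 in knockout libraries (-2.34 ± 0.11, limma, adjusted p = 5.3e-07), and Fgf18 63.2, 57.5 and 58.6 against 26.6, 24.9 and 22.8 (-1.24 ± 0.07). Etv5, a transcription factor induced by FGF, was 66.2, 64 and 67.2 against 30, 26.8 and 25.7 (-1.23 ± 0.07, adjusted p = 1.6e-06), and the feedback inhibitor Spry4 fell from 14.6 ± 4.03 to 7.42 ± 1.33. These ligands and both responsive genes were lower in all 3 knockout libraries, while the receptor Fgfr3 rose from 0.994 ± 0.429 to 2.8 ± 0.546 (0.94 ± 0.18). In the EGF family (6 of 14 rose and 3 fell, 64.3% called), the receptor Egfr was 680.3, 659.9 and 680.5 against 439, 396 and 415 (-0.69 ± 0.06, adjusted p = 2.8e-05), and its ligand Ereg rose from 6.08 ± 0.964 to 13 ± 1.93 (0.98 ± 0.14).

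Of 18 neurotrophin and GDNF genes 7 rose and 7 fell. Gdnf, the growth factor of ureteric bud outgrowth, was 10.7, 16.3 and 16.4 in wild-type and 23.5, 28.2 and 25.9 in knockout libraries (0.82 ± 0.15, limma, adjusted p = 0.0022), and its receptor tyrosine kinase Ret rose from 0.753 ± 0.338 to 2.06 ± 0.505 (0.81 ± 0.18). Clcf1, a cytokine that acts through the CNTF receptor, was 686, 502 and 590.2 against 284, 299 and 259 (-1.07 ± 0.11, adjusted p = 6.4e-05). Gdnf and Clcf1, both ligands, therefore differed in direction.

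In Notch signalling 7 of 26 genes rose and 7 fell (53.8% called). The receptor Notch1 was 42.2, 24 and 18.5 in wild-type and 84.3, 61.2 and 79.97 in knockout libraries (1.45 ± 0.25, limma, adjusted p = 0.0014). Its ligands were opposed: Jag1 was 492, 584 and 562 against 308, 311 and 282 (-0.86 ± 0.08, adjusted p = 3e-05), and Jag2 4.34, 4.3 and 4.99 against 17, 16.6 and 19.99 (1.77 ± 0.11, adjusted p = 2.6e-06). The target genes were opposed as well, with Hey1 at 2.26 ± 0.242 against 0.869 ± 0.11 (-0.80 ± 0.12) and Hey2 at 5.33 ± 1.19 against 10.2 ± 0.72 (0.84 ± 0.14). Lfng, which modifies Notch with sugars, fell from 64.7 ± 15.3 to 17.4 ± 3.54 (-1.83 ± 0.17). Of 12 Hedgehog genes 3 rose and 3 fell (50% called). The effector Gli2 fell from 18.4 ± 0.853 to 10.1 ± 1.34 (-0.82 ± 0.10) and the target Hhip from 5.81 ± 1.96 to 2.46 ± 0.305 (-0.94 ± 0.20). The Hedgehog count of 6 was 3 without wild-type replicate 2, wild-type replicate 3 or knockout replicate 3, with no filter on low values, and with chromosome medians subtracted (1 up and 2 down).

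Of 23 TNF superfamily ligands and receptors 6 rose and 10 fell (69.6% called, median -0.16). Among receptors, Tnfrsf1b (TNF receptor 2) was 0.256, 0.49 and 1.1 in wild-type and 9.94, 10.7 and 8.87 in knockout libraries (2.78 ± 0.18, limma, adjusted p = 4.4e-06). Cd40, a costimulatory receptor, was 13, 18.4 and 20.9 against 2.46, 2.42 and 2.56 (-2.38 ± 0.16, adjusted p = 4.7e-06), and Tnfrsf11b, the decoy receptor osteoprotegerin, 23.1, 24.3 and 25.4 against 6.71, 6.7 and 6.86 (-1.70 ± 0.08, adjusted p = 5.7e-07). Tnfrsf1b was thus 1 of the 6 rises, and the other genes named here were among the 10 falls. The ligand Tnfsf18 fell from 17.4 ± 5.44 to 1.69 ± 0.576 (-2.76 ± 0.22).

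Among 29 interleukin genes 8 rose and 10 fell (62.1% called). Il1rl1, the receptor for interleukin-33, was 5.68, 8.76 and 8.6 in wild-type and 17.1, 18.8 and 25.2 in knockout libraries (1.30 ± 0.18, limma, adjusted p = 0.00039), opposite to Il11. The interleukin count of 18 was 11 without wild-type replicate 3, 11 without knockout replicate 1 and 10 without knockout replicate 2. In the prostaglandin list, which also holds leukotriene enzymes such as Alox5 and Lta4h, 6 of 19 genes rose and 8 fell (73.7% called). Without knockout replicate 3 it had 9 called genes. Ptgs1 (cyclooxygenase 1) was 56.2, 47.5 and 42.2 against 10.9, 10.6 and 10.5 (-2.08 ± 0.10, adjusted p = 6.4e-07), Ptgis (prostacyclin synthase) 17.3, 13.9 and 13.8 against 2.04, 0.948 and 1.9 (-2.63 ± 0.18, adjusted p = 5.5e-06), and the prostaglandin transporter Slco2a1 163, 184 and 193 against 62.6, 60.7 and 75 (-1.44 ± 0.09, adjusted p = 3.6e-06). These 3 falls lie at synthesis and uptake. Among the 6 rises was Lta4h, from 59.6 ± 1.4 to 77.8 ± 2.37 (0.38 ± 0.05). Slco2a1 was 156 ± 31.4 in the second knockout set.

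In purinergic signalling 10 of 30 genes rose and 7 fell (56.7% called). The enzymes that process extracellular nucleotides differed in direction. Entpd1 (CD39), which removes phosphates from ATP and ADP, was 1.46, 4.07 and 2.25 in wild-type and 0.376, 0.0774 and 0.107 in knockout libraries (-1.54 ± 0.24, limma, adjusted p = 0.00081). Nt5e (CD73), which turns AMP into adenosine, was 4.97, 4.88 and 4.62 against 10.7, 12.1 and 13.5 (1.16 ± 0.11, adjusted p = 4e-05), and Enpp1, which makes pyrophosphate from ATP, 12.9, 12.5 and 11.2 against 35.7, 28.1 and 41.3 (1.44 ± 0.13, adjusted p = 3.2e-05). Nt5e and Enpp1 were higher in every knockout library. The ATP-gated channel P2rx7 fell from 20.8 ± 2.9 to 6.85 ± 0.436 (-1.47 ± 0.11), and the UDP receptor P2ry6 from 61.7 ± 1.04 to 21.8 ± 1.35 (-1.46 ± 0.06). Among 17 renin-angiotensin, endothelin and natriuretic peptide genes 5 rose and 4 fell (52.9% called). The natriuretic peptide Nppa was 2.19, 2.45 and 1.51 against 7.99, 8.05 and 8.31 (1.59 ± 0.13, adjusted p = 2.1e-05), and Mme (neprilysin), which degrades it, 45.1, 51.6 and 44.7 against 19.7, 18.5 and 19.8 (-1.24 ± 0.07, adjusted p = 2.6e-06).

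Ion channels fell more often than they rose. Of 28 tested potassium channel genes 7 rose and 12 fell (67.9% called, median -0.30). Kcnj16, an inward rectifier of the renal tubule, was 126, 74.1 and 65.7 in wild-type and 25.9, 20.8 and 22.1 in knockout libraries (-1.85 ± 0.20, limma, adjusted p = 0.00011). Subunits of the calcium-activated BK channel moved in opposite directions. Its pore-forming subunit Kcnma1 was 11.1, 5.01 and 3.95 against 0.686, 0.368 and 1 (-2.10 ± 0.30, adjusted p = 0.00051), and its accessory subunit Kcnmb1 0.848, 1.66 and 1.27 against 5.27, 5.26 and 5.21 (1.48 ± 0.14, adjusted p = 4.8e-05). Of 17 sodium and calcium channel genes 1 rose and 6 fell (41.2% called). The calcium channel Cacna1a fell from 10.7 ± 0.57 to 4.34 ± 0.357.

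Of 34 TRP, Piezo, chloride and water channel genes 6 rose and 12 fell (52.9% called). Trpv4, an osmo- and mechanosensitive channel, was 139, 102 and 90.2 in wild-type and 60.7, 48.1 and 53.5 in knockout libraries (-1.0 ± 0.15, limma, adjusted p = 0.00057), and the water channel Aqp1 112, 126 and 106 against 79.5, 78 and 50.2 (-0.74 ± 0.16, adjusted p = 0.0042). Trpm6, a magnesium channel, fell from 11.9 ± 2.64 to 2.79 ± 0.841 (-1.77 ± 0.20) and was 12.7 ± 1.28 in the second knockout set. Pkd2, the gene of polycystin-2, was 174, 159 and 160.4 against 276, 257 and 273 (0.71 ± 0.06, adjusted p = 1.7e-05), in the opposite direction to the TRP channels named here.

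Amino acid transporters rose for 12 of 35 and fell for 7 (54.3% called). Slc6a6, the taurine transporter, was 3190.0, 2639 and 2958 in wild-type and 1256, 1095 and 1142 in knockout libraries (-1.33 ± 0.10, limma, adjusted p = 1.2e-05), and Slc1a1, a glutamate and cysteine transporter, 37.1, 28.8 and 27.5 against 2.06, 1.66 and 1.54 (-3.54 ± 0.13, adjusted p = 1.3e-07). Against these, Slc38a2 and Slc1a5, both neutral amino acid carriers that take up glutamine, rose from 199.7 ± 6.21 to 352 ± 6.14 and from 6.4 ± 0.705 to 14.6 ± 0.864 (0.81 ± 0.05 and 1.08 ± 0.10). Slc7a2, a carrier of arginine and lysine, was 2.92, 4.09 and 4.23 against 23.4, 15.4 and 34.2 (2.36 ± 0.24, adjusted p = 7.5e-05). Of 39 glucose, monocarboxylate and organic ion transporters 15 rose and 14 fell (74.4% called). Slc16a7 (MCT2) was 10.7, 8.27 and 8.9 against 0.576, 0.6 and 0.394 (-2.75 ± 0.13, adjusted p = 4.8e-07), the glucose carrier Slc2a1 74.5, 69.1 and 67.8 against 50.5, 45.9 and 41.4 (-0.61 ± 0.08), and the urate carrier Slc2a9 7.95, 12.6 and 10.5 against 22.3, 19.7 and 20.1 (0.95 ± 0.14).

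ABC transporters fell for 15 of 33 tested genes and rose for 3 (54.5% called, median -0.20). The Abca subfamily accounted for 7 of these falls among 10 tested. Abcg2, a multidrug and urate exporter, was 45.7, 53.6 and 59.6 in wild-type and 26.8, 28.6 and 25.1 in knockout libraries (-0.95 ± 0.10, limma, adjusted p = 6.7e-05), and Abca12, a lipid transporter of skin, 5.19, 5.67 and 5.25 against 1.37, 0.755 and 0.519 (-1.78 ± 0.16, adjusted p = 3.5e-05). The nucleotide exporter Abcc5 was one of the 3 rises, at 94.5, 99.4 and 100.2 against 131, 130 and 143 (0.45 ± 0.06, adjusted p = 0.00022). In the second knockout set Abcc5 was 82.95 ± 11.1, below every wild-type library, and Abcg2 was 24.8 ± 2.73. The bicarbonate cotransporter Slc4a7 was 283, 264 and 285 against 105, 97.5 and 100.1 (-1.45 ± 0.05, adjusted p = 1.3e-07), within a group of 30 ion-coupled transporters of which 8 rose and 7 fell (50% called).

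Glutathione S-transferases divided by class: of 19 tested, 5 rose and 7 fell (63.2% called). In the mu class 5 of 6 fell and none rose, and in the theta class 2 of 3 rose and none fell. Gstm2 was 85.8, 93.8 and 95.5 in wild-type and 34, 36.6 and 32.9 in knockout libraries (-1.39 ± 0.06, limma, adjusted p = 5.3e-07), and Gstt1 0.651, 0.724 and 0.648 against 5.29, 5.11 and 4.55 (1.84 ± 0.11, adjusted p = 2.4e-06). The mu genes are close copies of each other, so reads could have been split among them. Gsta4, which clears the lipid peroxidation product 4-hydroxynonenal, was 79, 51 and 57.1 against 12.6, 12.6 and 13.8 (-2.16 ± 0.14, adjusted p = 4e-06). Of 31 aldehyde dehydrogenases and aldo-keto reductases 10 rose and 10 fell (64.5% called), with Aldh7a1 at 108 ± 7.09 against 58.9 ± 0.342 and Aldh1l2, a mitochondrial folate enzyme, at 12.2 ± 4.04 against 24.4 ± 0.686. Of 18 cytochrome P450 genes 4 rose and 4 fell (44.4% called), a share close to that of all genes.

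Enzymes that build sugar chains changed in 62.7% of 51 tested cases, 16 up and 16 down. St3gal5, which makes the ganglioside GM3 found on podocytes, was 423, 399 and 405 in wild-type and 185, 180.5 and 173 in knockout libraries (-1.19 ± 0.05, limma, adjusted p = 4.2e-07). St3gal2, which adds sialic acid to more complex gangliosides, was 124, 126 and 112 against 195, 182 and 186 (0.63 ± 0.06, adjusted p = 4.4e-05). These sialyltransferases moved in opposite directions without overlap. Serpin genes were called in 50% of 20 cases (5 up and 5 down), among them Serpinf1, the anti-angiogenic factor PEDF, at 88.1, 95.4 and 104 against 37.7, 28.9 and 30.4 (-1.54 ± 0.10, adjusted p = 4.2e-06).

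Adhesion GPCRs, tetraspanins and phosphodiesterases fell more often than they rose. Of 16 adhesion GPCRs 2 rose and 8 fell (62.5% called, median -0.30). Adgrg1 was 700.5, 442 and 421 in wild-type and 190.0, 155 and 151 in knockout libraries (-1.62 ± 0.18, limma, adjusted p = 0.0001), and Adgrf5 21.5, 26.4 and 27.9 against 4.5, 4.88 and 5.66 (-2.12 ± 0.12, adjusted p = 1.7e-06). Of 25 tetraspanins, scaffolds of membrane microdomains, 4 rose and 10 fell (56% called), with Tspan7 falling from 53.5 ± 5.95 to 16.8 ± 2.19 (-1.62 ± 0.11). Of 15 phosphodiesterases, which break down cyclic nucleotides, 1 rose and 7 fell (53.3% called). Pde3a was 52.9, 28.7 and 29.1 against 8.13, 6.12 and 8.37 (-2.10 ± 0.22, adjusted p = 7.5e-05), and Pde4b 87.6, 62 and 69 against 44.8, 32 and 29.9 (-1.02 ± 0.16, adjusted p = 0.00085). The median over the phosphodiesterases was nonetheless near 0 (-0.00226).

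Immediate early genes and several housekeeping complexes had called shares below the 44.7% of all genes. Of 36 immediate early genes 5 rose and 2 fell (19.4%). Klf2, a factor induced by shear stress in endothelium, was 1.2, 1.68 and 1.27 in wild-type and 6.22, 7.72 and 5.88 in knockout libraries (1.67 ± 0.13, limma, adjusted p = 1.6e-05), and Maff 222, 233 and 244 against 122, 127 and 96 (-1.03 ± 0.10, adjusted p = 4.3e-05). With the replicate number as a block, 7 immediate early genes rose and 8 fell. Without wild-type replicate 1 the count was 12, and without knockout replicate 2 it was 4. Of 20 dual-specificity phosphatases 4 rose and 2 fell (30%), and 4 rose and 7 fell with the block. Proteasome subunits were called in 24.3% of 37 cases (3 up and 6 down), a count of 5 without wild-type replicate 3, knockout replicate 1 or knockout replicate 3. Aminoacyl-tRNA synthetases were called in 28.6% of 35 cases (8 up and 2 down), a count of 6 without wild-type replicate 3 or knockout replicate 1, with no filter on low values, and with chromosome medians subtracted. Mitochondrial ribosomal proteins were called in 30.8% of 78 cases (14 up and 10 down), 15 in all without knockout replicate 3 and 9 with chromosome medians subtracted. Cilium transport genes were called in 30% of 30 cases (5 up and 4 down), 5 in all with chromosome medians subtracted. Mrps12, a mitochondrial ribosomal protein, rose from 11.7 ± 0.977 to 21.3 ± 0.691 (0.82 ± 0.08).

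Zinc finger genes of the Zfp series, most of them transcriptional repressors, rose in 104 of 353 tested cases and fell in 28 (37.4% called, median 0.15). The total of 132 called genes was 83 without knockout replicate 3. On chromosomes 5, 8, 10, 15 and 19, chosen because every 10-Mb window with at least 20 tested genes there had a median log2 fold change above 0 in these same data, 39 of 63 Zfp genes rose and none fell, and of all 3476 genes tested there 1661 rose and 342 fell. On the other chromosomes 65 of 290 Zfp genes rose and 28 fell, against 1578 and 2814 of 10837 genes. With chromosome medians subtracted 93 Zfp genes rose and 23 fell, and their median of 0.148 was 0.147.

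Window medians ran from 0.192 to 0.412 over the 12 windows of chromosome 8 and from 0.15 to 0.43 over the 12 of chromosome 10. Those of chromosome 4 ran from -0.306 to -0.106 over 13 windows, and those of chromosome 6 from -0.306 to -0.0554 over 13. The windows of chromosomes 3 (11 windows) and 16 (7 windows) were below 0 as well. Windows with fewer than 20 tested genes are left out of these ranges; the 10 on chromosomes 5, 8, 10, 15 and 19 also had medians above 0, and the 13 on chromosomes 3, 4, 6 and 16 below 0. The number of gene copies in either line was not measured. Fold changes of named genes are given without subtracting their chromosome's median.

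**Figure D5:**
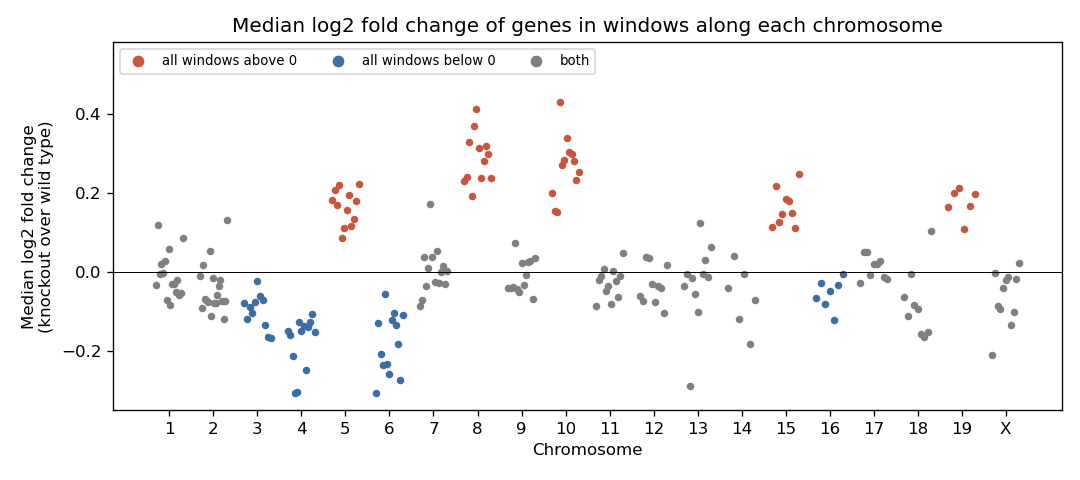
Median log2 fold change (knockout over wild type) of tested genes in consecutive 10-Mb windows, 1 point a window, grouped by chromosome, for windows with at least 20 tested genes. All windows shown lie above 0 on chromosomes 5, 8, 10, 15 and 19 and below 0 on chromosomes 3, 4, 6 and 16.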

How the data were processed

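RNA sequencing libraries of Col4a3+/+ and Col4a3-/- mouse podocytes, 3 each and all given vehicle, were analysed from the authors' deposited table. Per the labels' protocols, RNA was extracted with an RNeasy kit and libraries were made with a poly(A) mRNA kit. The submitters' processing notes name FastQC, Trim Galore, STAR, edgeR and the mouse build mm39, without versions. No source used here gives the counting tool, its strand setting or the normalization method.

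The per-library columns the authors deposited are a normalized signal per gene. Dividing each by its smallest step gave whole reads for 99.99 to 100% of values (tolerance 0.01), so depth was recovered as 45417221 to 54290968 reads per library. The log2 fold change, p-value and score columns that the authors deposited in the same table were not used for results. Fold limits set at 3 reads cover counting error only, while each SD and SE measures the spread between libraries.

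The main test was limma 3.58.1 (R 4.3.3) with an intensity trend on log2(signal + 1), without a block, over 14313 genes (those reaching a signal of 0.5 in 3 or more of the 6 libraries), with Benjamini-Hochberg adjustment and calls at an adjusted p under 0.05. Fold changes on the log2(signal + 1) scale understate the change of low genes. The design allowed for counts or a signal; limma was used since the columns are a signal, and count tests on recovered reads were alternatives. The fit was tested on simulated data. Alternatives were edgeR 4.0.16 and DESeq2 1.42.0 on recovered reads, a pseudocount of 0.1, no filter, a filter at a signal of 5, TMM scaling, the replicate number as a block, leaving out each library, and subtracting each chromosome's median. Same-numbered wild-type and knockout libraries deviated together from their group means (correlations of 0.371, 0.217 and 0.105). Wild-type replicate 3 correlated more with knockout replicate 2 (0.197), so these values do not settle a pairing. The labels state none.

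Gene families and members were chosen with earlier results of these data known, and no test was run over a family. Named genes were Col4a3, the 30 largest rises and 30 largest falls among called genes of above-median level without overlap, and up to 6 called members per family with the smallest p. The genes near 0 in one line, the neighbours of Col4a3, and single family members beyond those 6 (such as Rarb, Nrp1, Notch1, Gdnf, Kcnma1, Slc7a2, Trpv4 and Twist2) were chosen after their values were seen. Promoter windows came from RefSeq (GRCm38.p6) by symbol, and all 5 retinoid genes looked up had an entry. Some genes that the rule names are not reported here. Gene positions are those of the deposited table. The apolipoprotein M and CYM50358 libraries were not used here.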

Additional observations from a re-analysis of the deposited data

How the results depend on the processing

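Across the 14 alternatives the number of called genes ran from 5025 to 7048, within 1.5 times the 6395 called, and leaving out 1 library gave 5025 to 6631. The number called by at least 2-fold, 871, was 1516 with edgeR and 1529 with DESeq2 on recovered reads and 1440 with a pseudocount of 0.1; without 1 library it was 864 to 910. The larger pseudocount shrinks the fold changes of low genes by construction. The replicate block gave 7048 called genes and 874 by at least 2-fold. Beyond the counts of immediate early genes and dual-specificity phosphatases given above, it moved no family's count by over 1.5 times. It changed no call of the 176 genes counted below. For wild-type replicate 3 the best correlation was with knockout replicate 2 (0.197), above that with its own number (0.105). The median log2 fold change of chromosome 8, 0.279, was 0.313 with edgeR, 0.307 with a pseudocount of 0.1 and 0.313 with the filter at 5, and 0.267 to 0.3 without 1 library. That of chromosome 10, 0.278, was 0.304, 0.302 and 0.314 under the same settings and 0.267 to 0.3 without 1 library. That of chromosome 4 was -0.164 and ran from -0.182 to -0.152. Of 176 tested genes followed through the alternatives, 174 kept their direction and call under every alternative that tested them. The exceptions were Nrp1, given above, and Hoxc10, which was not called and turned from 0.03 to -0.15 with the chromosome median subtracted. In 24 of 55 families the count of called members moved by over 1.5 times under at least 1 alternative. A filter at a signal of 5 tests fewer genes and gave 5081 calls. With it potassium channels had 7 called members, protocadherins 12, glucose and organic ion transporters 16, glycosyltransferases 19, imprinted genes 9, purinergic genes 11, neurotrophin and GDNF genes 9, FGF genes 7, cytochrome P450 genes 5, and sodium and calcium channels 4. Members that did not reach that signal in 3 libraries were not tested under this filter. The cause of the other shifts was not tested.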
